A study of Mus musculus with 4 samples.

Results

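Natural killer (NK) cells of the blood were taken from droplet single-cell RNA libraries of mice with or without B16F10 liver metastases, B16F10 being a melanoma line of the C57BL/6 strain. A barcode, which stands for a droplet with a captured cell, counted as a blood NK cell when it held at least 200 genes and at most 10% mitochondrial transcripts and had a UMI (a counted transcript) of at least 3 of Ncr1, Klrb1c, Klre1, Klra8, Klra4, Gzma, Prf1 and Eomes. It also had to be without a UMI of the T cell genes Cd3e, Cd3d and Cd3g and of the B cell genes Cd79a and Ms4a1. The members were thus chosen by detection of these genes, and their values are given as a description. The rule found 287 members, 47 in the metastasis blood library and 240 in the sham blood library, among 21626 blood barcodes that passed the filters and 49121 in all 4 libraries. The libraries came from female C57/Bl6 mice aged 6 to 8 weeks. In the metastasis arm 800000 B16F10 cells were injected into the spleen on day 0, in the sham arm saline was injected there, and the spleen was removed at once in both arms. All mice, sham mice included, then carried a subcutaneous graft of 250000 B16F10 cells, so no group was free of tumour and none had a spleen. Blood and lung were taken on day 7. By the protocol the blood leukocytes (CD45-positive cells) came from density centrifugation, and the lungs went through a filter and live/dead columns. The submitters also name kits for CD45 enrichment, and on which tissue these were used is unclear. With 1 library for each tissue and arm and no count of mice given, no spread between animals could be measured, and no p-value was computed.

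NK cells are innate lymphocytes that kill tumour and infected cells by releasing perforin and granzymes, and they secrete chemokines and interferon gamma. In mice their activity is set by the balance of activating receptors such as NKp46, NK1.1 and NKG2D with inhibitory receptors of the Ly49 family and CD94/NKG2A, which read MHC class I on other cells. They mature from CD27-high cells to CD11b-high, KLRG1-positive cells under the transcription factors Eomes, T-bet and Zeb2, and IL-15 keeps them alive through Bcl-2.

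The members were shallower in metastasis blood, with a median of 2847 UMIs (range 1625 to 9694) and 1408 genes, than in sham blood, with 4131 UMIs (508 to 23799) and 1732 genes. Levels are given as CPM, the UMIs of a gene per 1000000 UMIs summed over the members of a library. Haemoglobin genes were left out of the sum, which came to 144823 and 1049790 UMIs. A single UMI was therefore worth 6.90 CPM in metastasis blood and 0.953 CPM in sham blood. Red cell, platelet and myeloid transcripts were found in some members: 3 and 25 held over 5% haemoglobin UMIs, 2 and 21 held a UMI of the platelet genes Pf4 or Ppbp, and 9 and 13 one of the neutrophil genes S100a8 or S100a9. The 7 neutrophil markers summed to 62.1 CPM in metastasis blood, with 5 of them at 0, and to 878 CPM in sham blood, with 1 at 0. The 7 monocyte markers summed to 407 CPM, with Csf1r, Fn1 and Cd14 at 0, and to 1467 CPM, with none at 0. The 7 platelet markers stood at 214 and 179 CPM. No member had a UMI of Cd4 or Cd8a. The T cell gene Trac was found in 1 and 7 members (2.13% and 2.92%), against 0.12% and 0.18% of blood B barcodes, and Cd5 in 0 and 1 members. The 7 ILC1 markers (Cxcr6, Il7r, Itga1 and others), which mark the tissue-resident relatives of NK cells, summed to 0 and 91.4 CPM with Cxcr6 at 0 in both libraries. A doublet score, which rates how much a barcode looks like a mixture of cells, was 0.3 or more in 0 and 8 members. The neutrophil, monocyte and ILC1 sums were thus higher in sham members, and the platelet sum and the share of members with S100a8 or S100a9 in metastasis members. Results are also given for the 42 and 195 members without a high doublet score, without over 5% haemoglobin and with fewer than 3 UMIs of neutrophil, monocyte (Ccr2 and Ly6c2 aside) and platelet markers, a choice made after the data were seen. These are called the members without mixed barcodes. No barcode sequence was a member in both blood libraries.

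The label was checked against NK genes that the rule did not use. The granule membrane gene Nkg7 was detected in 47 of 47 and 239 of 240 members, the adaptor Tyrobp (DAP12) in 46 and 240, the chemokine Ccl5 in 47 and 240, Klrk1 (NKG2D) in 45 and 231 and Klrd1 (CD94) in 44 and 226. In blood B barcodes, which should lack these genes and show the level that free RNA gives, Nkg7 was found in 0.12% and 0.61% at median depths of 2504 and 3602 UMIs, and Tyrobp, which myeloid cells share, in 11.1% and 17.4%. Ncr1, which encodes NKp46, stood at 580.0 CPM in metastasis and 585 CPM in sham blood, Klrb1c (NK1.1) at 994 and 934 CPM, and the granzyme gene Gzma at 10641 and 9883 CPM. Klre1 stood at 953 and 1121 CPM, Klra8 (Ly49H) at 981 and 1041 CPM and Klra4 (Ly49D) at 1574 and 1504 CPM. Prf1, which encodes perforin, stood at 974 and 728 CPM, and Eomes at 338 and 226 CPM. Of the members, 2 and 4 carried exactly 3 of the 8 markers, and 7 and 50 carried all 8. Just outside the rule, 1 and 2 barcodes had 2 markers, and each of these also held a Nkg7 and a Ccl5 UMI. Klrd1 was found in 1 and 0 of these barcodes and S100a8 in 0 and 1.

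**Figure D1:**
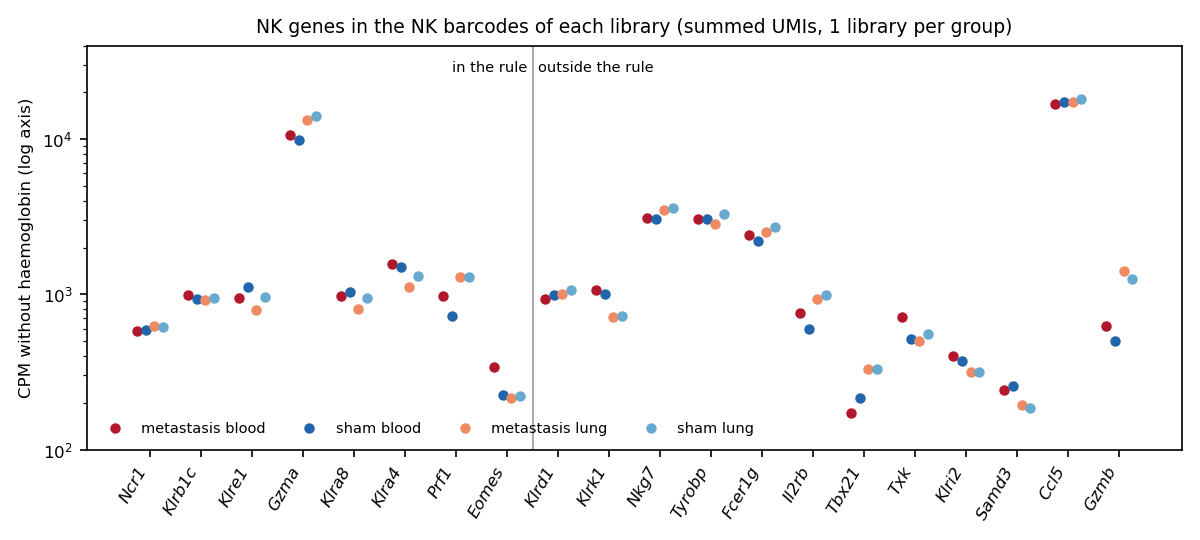
CPM (log axis) of the 8 genes of the rule and 12 NK genes outside it, summed over the NK barcodes of each of the 4 libraries; each point is 1 library and levels are per UMI, not per gene length. Most genes lie close together across the libraries, while Gzmb is at 628 and 499 CPM in blood and at 1408 and 1251 CPM in lung.

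NK cells made up a smaller share of the barcodes of metastasis blood, while a difference in their share of lymphocytes was not detectable. Of all kept barcodes they were 0.547% in metastasis blood (95% exact binomial interval 0.402 to 0.726) and 1.84% in sham blood (1.62 to 2.09), a ratio of 0.297 (0.212 to 0.407). The base differed in its make-up: metastasis blood held 2115 neutrophil and 3252 red cell barcodes, and sham blood held 433 and 290. Without barcodes of 50% or more haemoglobin the shares were 0.852% and 1.83%, a ratio of 0.466 (0.329 to 0.646). As a share of NK, T and B barcodes, NK cells were 47 of 2353 (2.00%, 1.47 to 2.65) and 240 of 10905 (2.20%, 1.93 to 2.49). That ratio was 0.908 (0.649 to 1.24), an interval that holds both a lower and a higher share, so a difference was not detectable at this depth. Among NK and T barcodes alone the shares were 7.33% and 9.04%, a ratio of 0.811 (0.580 to 1.11). All intervals cover counting error only, and loss of cells in the preparation cannot be told apart from their number in the animal.

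**Figure D2:**
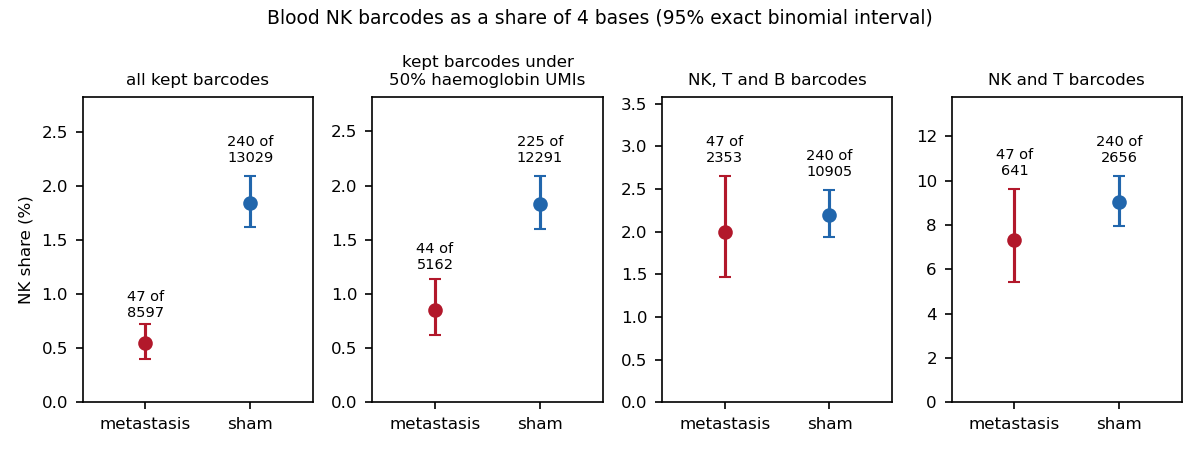
NK barcodes as a percentage of 4 bases in metastasis and sham blood, with 95% exact binomial intervals and the counts above each point; each axis starts at 0. The intervals of the libraries are apart for the bases that hold neutrophils or red cells and overlap for the lymphocyte bases.

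The transcriptome of the members was compared gene by gene between metastasis and sham blood. A gene counted as measured when the blood libraries together held 50 or more of its UMIs at a mean of 10 CPM or more. It was counted as higher or lower at 2-fold or more with a 95% interval of the ratio that excluded equality. Of 3822 measured genes, 35 were higher in metastasis blood (0.916%) and 130 lower (3.4%), and the median log2 ratio was -0.02. Of these, 33 and 94 stood at 0.25 or more of their highest CPM in any other barcode class. The other 2 and 36 did not, and 14 of the 36 were highest in neutrophil barcodes. The intervals stand for single genes and are not adjusted for the number of genes. The UMI minimum was met mainly through the deeper sham library, so that a gene present in few UMIs could more easily be found lower than higher. When a mean of 50 CPM replaced the UMI minimum, 51 genes were higher and 70 lower, and without mixed barcodes 24 were higher and 77 lower, of which 15 and 57 were among those of the full set.

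The genes with the largest ratios among those at 0.25 or more of their highest CPM in any other barcode class, a limit against free RNA, rested on few UMIs. Tia1, an RNA-binding protein first found in cytotoxic granules, stood at 104 CPM in metastasis blood (15 UMIs) and 34.3 CPM in sham blood, a log2 ratio of 1.59 (0.62 to 2.50). Mosmo, a modulator of Smoothened signalling, was at 180 and 60.01 CPM (1.58, 0.86 to 2.26), and Acp5, the tartrate-resistant acid phosphatase, at 104 and 37.1 CPM (1.48, 0.51 to 2.37). Rora, a nuclear receptor of innate lymphocytes, was at 104 and 42.9 CPM (1.27, 0.32 to 2.14). Others among the 12 highest were Commd4, Irs2, Utp18, Ccdc174, Gmds, Pear1 and Malsu1, with log2 ratios from 1.21 to 1.43 and 13 to 20 UMIs in metastasis blood. Without mixed barcodes, Rora (0.85, -0.40 to 1.95), Utp18 (1.01, -0.12 to 2.02) and Ccdc174 (0.84, -0.22 to 1.79) no longer excluded equality. At the low end, Bbs9, a subunit of the ciliary BBSome, had 1 UMI in metastasis blood and 67 in sham blood, a log2 ratio of -3.21 (-8.53 to -0.68). Fhit, a dinucleoside hydrolase, had 2 and 104 UMIs, the latter in 45 members (-2.84, -5.91 to -0.95). The golgi GTPase Arl1 had 1 and 57 UMIs, and Cops2, Rnf220, Setd7, Scai, St6galnac3, Ggct, Ano6, Ccdc186 and Lgals3bp had 1 UMI in metastasis blood and 50 to 54 in sham blood. These 12 genes all passed the minimum of 50 UMIs through the sham library, where they were high, so the minimum bears on their place among the lowest. Without mixed barcodes Ano6 was at -2.49 (-7.83 to 0.08), and Cops2, Setd7, St6galnac3 and Ccdc186 had no UMI in metastasis blood, which gives bounds of -0.74, -1.26, -1.09 and -0.87. In T barcodes of the same libraries the log2 ratios of these 12 genes lay between -0.39 and 0.44. The genes were picked by their low NK ratios and not by T barcodes, so this contrast cannot show a fall particular to NK cells.

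Gene lists were then read by role, counting a member as higher or lower at 1.5-fold or more with an interval that excluded equality. Over all measured genes 101 were higher (2.64%) and 158 lower (4.13%) by this count. None of the 12 NK genes outside the rule was counted in either direction, and their median log2 ratio was 0.05. Among them Ccl5 stood at 16682 CPM in metastasis and 17418 CPM in sham blood, Nkg7 at 3080 and 3075 CPM, Tyrobp at 3066 and 3033 CPM and Gzmb, the granzyme of lymphocyte killing, at 628 and 499 CPM. Each of these differed by less than 1.5-fold.

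Of 12 measured activating receptors 1 was lower and none higher. Klrk1, the NKG2D receptor for stress ligands, was at 1063 CPM in metastasis and 1006 CPM in sham blood. Cd226 (DNAM-1), which binds CD155 and CD112, was the gene counted lower, at 55.2 CPM (8 UMIs in 5 members) and 126 CPM (132 UMIs in 60 members), a log2 ratio of -1.19 (-2.43 to -0.17). Its sham level was under the limit against free RNA, with the highest level in platelet barcodes, and without mixed barcodes its ratio was -1.13 (-2.48 to -0.03). Slamf7, a self-binding receptor of the SLAM family, was at 104 and 65.7 CPM with an interval that included equality. Of 6 measured inhibitory receptors 1 was lower. This was Klrg1, a cadherin-binding receptor of mature NK cells, at 96.7 and 181 CPM (-0.90, -1.80 to -0.12), and at -0.95 (-1.89 to -0.14) without mixed barcodes. Klrc1, which encodes NKG2A, stood at 111 and 158 CPM (-0.52, -1.36 to 0.22), and Klrb1b at 262 and 288 CPM.

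The Ly49 receptors are encoded side by side on mouse chromosome 6, from Klra5 at 129898988 to Klra1 at 130386874 in GRCm38.p6 (RefSeq). Some of them are close in sequence, and reads that fit several may have been shared out or lost, so each value is uncertain. Outside the rule 4 of 9 were measured. Klra1 (Ly49A) was at 262 CPM in metastasis blood (38 UMIs in 11 members) and 168 CPM in sham blood (176 UMIs in 40 members), a log2 ratio of 0.65 (0.10 to 1.16), and counted as higher. This call was not kept: the ratio was 0.38 (-0.22 to 0.95) without mixed barcodes and -0.11 when each cell was thinned to 1000 UMIs. Klra3 (Ly49C) stood at 228 and 177 CPM, Klra7 (Ly49G) at 594 and 524 CPM and Klra9 (Ly49I) at 566 and 582 CPM, all with intervals that included equality. Klra3 was at -0.50 (-1.32 to 0.22) without mixed barcodes.

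Of 20 measured adaptors and proximal signalling genes 1 was higher and 1 lower. Sh2d2a, the T cell-specific adaptor that binds Lck, was at 276 CPM in metastasis and 156 CPM in sham blood, a log2 ratio of 0.82 (0.29 to 1.33). It was detected in 27 of 47 and 105 of 240 members, and its ratio was 0.81 (0.25 to 1.33) without mixed barcodes and 0.37 in lung NK cells. Syk, the kinase that couples DAP12, was at 89.8 and 183 CPM (-1.03, -1.96 to -0.22), and at -0.97 (-1.95 to -0.12) without mixed barcodes, with a higher level in neutrophil barcodes than the limit against free RNA allows. The adaptors Fcer1g (2417 and 2197 CPM), Hcst, which encodes DAP10 (580.0 and 660.1 CPM), and Cd247 (200.2 and 189 CPM) differed by less than 1.5-fold.

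**Figure D3:**
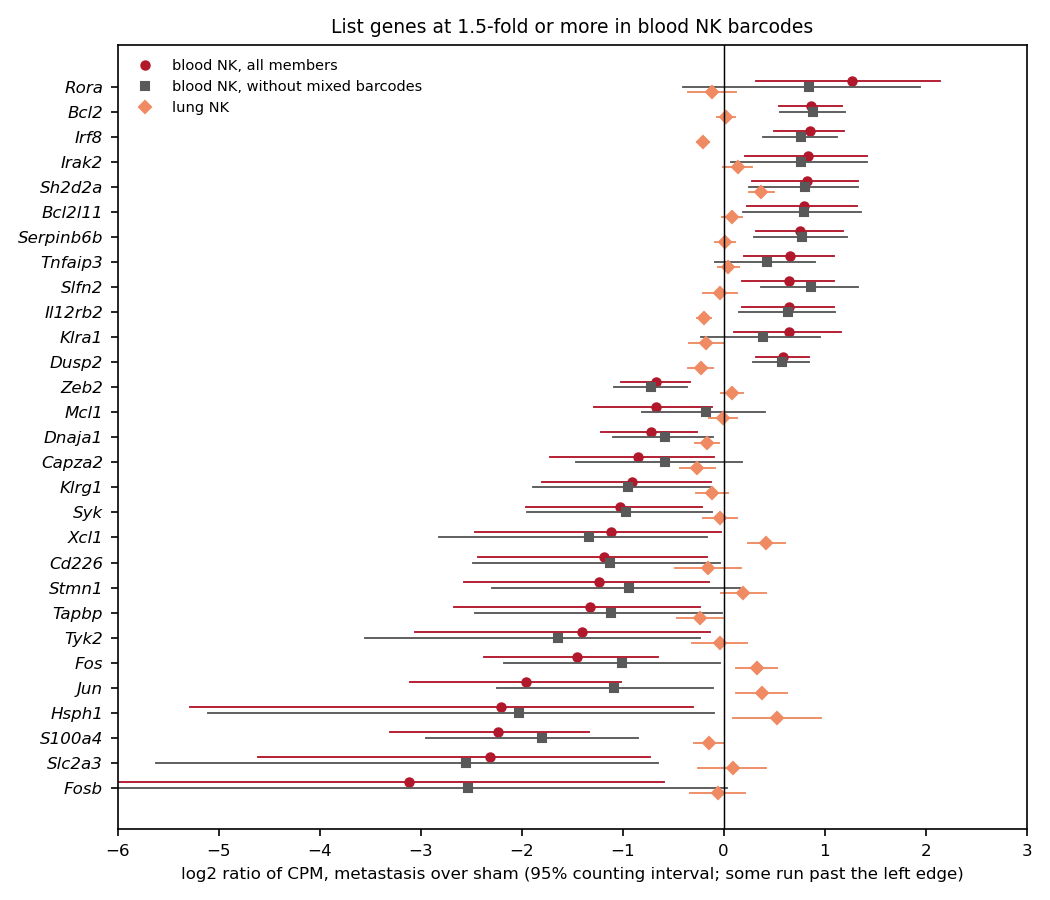
Log2 ratio of CPM, metastasis over sham, with 95% counting intervals, for 29 named list genes counted at 1.5-fold or more in blood NK barcodes, 12 higher and 17 lower; circles are all members, squares the members without mixed barcodes and diamonds NK barcodes of the lung. Bcl2, Irf8, Sh2d2a, Bcl2l11 and Serpinb6b stay above 0 without mixed barcodes, and most lung values lie within 0.5 of 0.

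Of 14 measured cytotoxic granule genes 1 was higher and none lower, a share near that of all measured genes, with a median log2 ratio of 0.30. The gene counted was Serpinb6b, a granzyme-inhibiting serpin family member, at 394 CPM in metastasis blood and 232 CPM in sham blood (0.76, 0.32 to 1.18), and at 0.77 (0.30 to 1.22) without mixed barcodes. Serpinb9, which inhibits granzyme B, was at 435 and 297 CPM (0.55, 0.14 to 0.94), under the limit of 1.5-fold. Gzmb was detected in 27.7% of metastasis members (15.6 to 42.6) and 34.2% of sham members (28.2 to 40.6) after thinning to 1000 UMIs, and in 0% and 0.04% of B barcodes. Unthinned, these shares were 76.6% and 66.7%, in the other order, so no order is read from them. Fasl, the ligand of the death receptor Fas, stood at 180 and 144 CPM and Lamp1, the granule membrane marker of degranulation, at 96.7 and 80.02 CPM.

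Of 8 measured chemokine and cytokine genes none was higher and 3 were lower: Xcl1, Ltb and Ccl9. Xcl1, the chemokine that attracts cross-presenting dendritic cells, was at 48.3 CPM in metastasis blood (7 UMIs in 7 members) and 105 CPM in sham blood (110 UMIs in 49 members), a log2 ratio of -1.12 (-2.46 to -0.03). It was at -1.34 (-2.82 to -0.16) without mixed barcodes. Ltb, the lymphotoxin beta gene, which B cells also express, had 2 UMIs in 1 member and 61 UMIs in 35 members (-2.07, -5.15 to -0.16). Ccl9, a chemokine of myeloid cells, had 0 and 54 UMIs, the latter in 10 members, of which 6 UMIs were left without mixed barcodes. The chemokines Ccl3 and Ccl4 stood at 483 and 343 CPM (0.50, 0.10 to 0.87) and at 801 and 594 CPM (0.43, 0.13 to 0.72), and Ifng at 131 and 188 CPM (-0.52, -1.28 to 0.17). Without mixed barcodes Ccl3 reached 0.87 (0.45 to 1.27) and Ccl4 0.70 (0.39 to 1.01), and both were above 0 in lung NK cells as well, at 0.83 and 0.41. Ccl3 was detected in 24 of 47 and 99 of 240 members, but 1 metastasis member held 19 of its 70 UMIs there. The ratio was 0.04 when the Ccl3 UMIs of that member were left out. Such a value keeps the scale and all sham UMIs, so it can only lie below the full ratio.

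Cytokine receptor genes were measured because IL-12, IL-18 and IL-15 arm NK cells. Of 11 genes of IL-12, IL-18 and IL-1 signalling 2 were higher and 3 lower. Il12rb2, the signalling chain of the IL-12 receptor, was at 345 CPM in metastasis blood and 220.0 CPM in sham blood (0.65, 0.18 to 1.10; 0.49 to 0.75 over the alternatives), and Irak2, a kinase of the IL-1 and IL-18 receptor complex, at 207 and 116 CPM (0.83, 0.21 to 1.42). Tyk2, the kinase that binds the IL-12 and interferon receptors, was lower, with 5 and 96 UMIs (-1.41, -3.06 to -0.13). The IL-18 receptor chains Il18r1 (697 and 521 CPM) and Il18rap (594 and 478 CPM) and Stat4 (753 and 519 CPM) were below the limit of 1.5-fold. Il1r1 had no UMI in either library. Il1b and Il1r2, genes of neutrophils and monocytes, were counted lower, with 1 and 81 UMIs (7 sham members) and 0 and 60 UMIs (4 sham members). Without mixed barcodes the sham library held no Il1r2 UMI and no ratio could be given for either gene.

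Bcl2 and Bcl2l11 were the survival genes counted higher. Bcl2, the anti-apoptotic protein that IL-15 sustains in NK cells, was at 759.5 CPM in metastasis blood (110 UMIs in 38 of 47 members) and 417 CPM in sham blood (438 UMIs in 159 of 240 members), a log2 ratio of 0.86 (0.55 to 1.17). It stayed between 0.65 and 0.92 over the alternatives run, and was at 0.88 (0.55 to 1.20) without mixed barcodes. In T barcodes the ratio was 0.45, in B barcodes 0.25 and in lung NK cells 0.03. Bcl2l11, which encodes the pro-apoptotic Bim, was at 256 and 148 CPM (0.79, 0.23 to 1.32), but below 1.5-fold at 0.33 when thinned to 1000 UMIs. It was also below 1.5-fold, at 0.58, without the Bcl2l11 UMIs of the metastasis member that held the most. Mcl1, the other anti-apoptotic protein on which NK cells depend, was at 193 and 308 CPM (-0.67, -1.28 to -0.11), but at -0.17 (-0.81 to 0.41) without mixed barcodes. In all, 2 of 11 measured survival genes were higher and 1 lower. The IL-15 receptor chains Il2rb (759.5 and 602 CPM) and Il2rg (159 and 208 CPM) and the kinase Jak1 (1029 and 900.2 CPM) differed by less than 1.5-fold.

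Of 19 measured lineage transcription factors outside the rule 1 was lower and none higher. This was Zeb2, which drives the last steps of NK maturation with T-bet, at 552 CPM in metastasis blood (80 UMIs in 29 of 47 members) and 878 CPM in sham blood (922 UMIs in 205 of 240 members). Its log2 ratio was -0.67 (-1.02 to -0.34), lay between -0.76 and -0.57 over the alternatives run, below 1.5-fold when thinned (-0.58) and as a mean over cells (-0.57), and was -0.25 in T barcodes, -0.24 in B barcodes and 0.08 in lung NK cells. Tbx21, which encodes T-bet, stood at 173 and 215 CPM (-0.32, -0.98 to 0.28), Id2 at 704 and 763 CPM and Runx3 at 186 and 178 CPM. Eomes, a gene of the rule, was described above. Of 16 measured genes of mature NK cells 2 were higher (Irf8 and Rora) and 3 lower (Klrg1, Zeb2 and S100a4). Irf8, a transcription factor of NK and myeloid cells, was at 608 and 336 CPM (0.85, 0.50 to 1.19), and at 0.76 (0.39 to 1.13) without mixed barcodes. Its ratio was 0.56, below 1.5-fold, without the Irf8 UMIs of the metastasis member that held the most. In lung NK cells it was at 1456 and 1679 CPM (-0.21). S100a4, a calcium-binding protein with its highest level in monocyte barcodes, was at 69.0 and 324 CPM (-2.23, -3.30 to -1.33), and at -1.80 (-2.95 to -0.85) without mixed barcodes. Itgam (CD11b) stood at 166 and 233 CPM, S1pr5, which guides NK cells out of tissue, at 104 and 115 CPM, and Cx3cr1 at 34.5 and 56.2 CPM, with intervals that included equality. Of 11 measured genes of immature NK cells none was higher, and the lower ones were the Ltb and Xcl1 given above. Cd27 stood at 48.3 and 55.3 CPM and Emb at 297 and 255 CPM.

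Stress and immediate early genes were mixed. Of 22 measured genes 1 was higher, the phosphatase Dusp2 at 1022 CPM in metastasis and 680.1 CPM in sham blood (0.59, 0.32 to 0.84; 0.49 to 0.63 over the alternatives), and 3 were lower. The lower ones were the AP-1 subunits Jun, at 62.1 and 242 CPM (-1.96, -3.11 to -1.01), Fos, at 89.8 and 245 CPM (-1.45, -2.38 to -0.65), and Fosb, with 1 and 63 UMIs and an interval that included equality without mixed barcodes. Fos and Fosb were under the limit against free RNA, with their highest level in neutrophil barcodes. Without mixed barcodes the ratios were -1.08 (-2.25 to -0.11) for Jun and -1.01 (-2.17 to -0.03) for Fos. Junb (718 and 794 CPM) and Cd69 (89.8 and 93.3 CPM), the early activation marker, differed by less than 1.5-fold. Of 12 heat shock genes 2 were lower: Hsph1, with 2 and 67 UMIs (-2.21, -5.28 to -0.30), and Dnaja1, an HSP40 co-chaperone, at 290.0 and 479 CPM (-0.72, -1.21 to -0.27), and at -0.58, below 1.5-fold, without mixed barcodes. The medians of the heat shock list were -0.34 in NK, -0.33 in T and -0.53 in B barcodes of the same libraries and 0.11 in lung NK cells.

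Of 12 measured type I interferon genes 1 was higher and 2 were lower. Slfn2, a schlafen of lymphocytes, was at 345 and 220.0 CPM (0.65, 0.18 to 1.10; 0.50 to 0.87 over the alternatives), and the lower genes were Ifitm3 and Ifi27l2a. Ifitm3 had 2 and 178 UMIs, but the sham UMIs lay in 9 members, and Ifi27l2a had 0 and 93 UMIs in 10 sham members. After mixed barcodes were left out 3 Ifi27l2a UMIs remained in the sham library, and no ratio could be given for either gene. None of 5 interferon gamma genes was counted, and of 18 MHC class I genes only the peptide-loading protein Tapbp was lower, at 48.3 and 121 CPM (-1.32, -2.67 to -0.24). None of 40 measured nuclear oxidative phosphorylation genes, which drive mitochondrial respiration, was counted, and their median log2 ratio was 0.09. Of 12 glycolysis genes the glucose transporter Slc2a3 was lower, with 3 and 108 UMIs (-2.31, -4.61 to -0.73), with its highest level in platelet barcodes. Of 29 actin cytoskeleton genes Capza2 was lower (-0.85, -1.71 to -0.09), and its interval included equality without mixed barcodes (-0.58, -1.46 to 0.19). The cell cycle list had 1 of 7 measured genes lower, the microtubule regulator Stmn1, at 48.3 and 113 CPM (-1.23, -2.58 to -0.14). Without mixed barcodes Stmn1 was at -0.94 (-2.30 to 0.16), and a UMI of Mki67, Top2a, Birc5, Cdk1 or Ccnb1 was found in 2 of 47 and 19 of 240 members. None of 17 adhesion, 8 TGF-beta, 6 chemokine receptor and 8 glucocorticoid-responsive genes was counted in either direction. Of 8 NF-kB genes the inhibitor Tnfaip3 (A20) was higher, at 373 and 236 CPM (0.66, 0.21 to 1.09), with an interval that included equality without mixed barcodes (0.43, -0.08 to 0.91).

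Single members differed in the Ly49 genes that were detected in them. Without thinning, a UMI of any of the 7 Klra genes outside the rule was found in 91.5% of metastasis members (79.6 to 97.6) and 89.2% of sham members (84.5 to 92.8), and in 0.99% and 0.95% of B barcodes. After thinning to 1000 UMIs, which left out no metastasis member and 3 sham members, the shares were 78.7% (64.3 to 89.3) and 69.2% (62.9 to 75.01), with overlapping intervals. From 0 to 5 of these 7 genes were detected per member: among 240 sham members 26 had none, 75 had 1, 95 had 2, 36 had 3 and 8 had more. Among 47 metastasis members 4 had none, 15 had 1, 18 had 2, 9 had 3 and 1 had 4. The mean number was 1.74 in metastasis and 1.70 in sham blood, and 1.13 and 0.97 after thinning. Sham members with none were 73 of 237 after thinning, so missed transcripts and genes that a cell did not express cannot be told apart. The activating receptors Klra8 and Klra4 both served to choose the members, so their joint detection is a description only: Klra4 was found in 102 of 148 sham members with Klra8 and in 40 of 92 without it, and in 21 of 28 and 12 of 19 metastasis members.

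**Figure D4:**
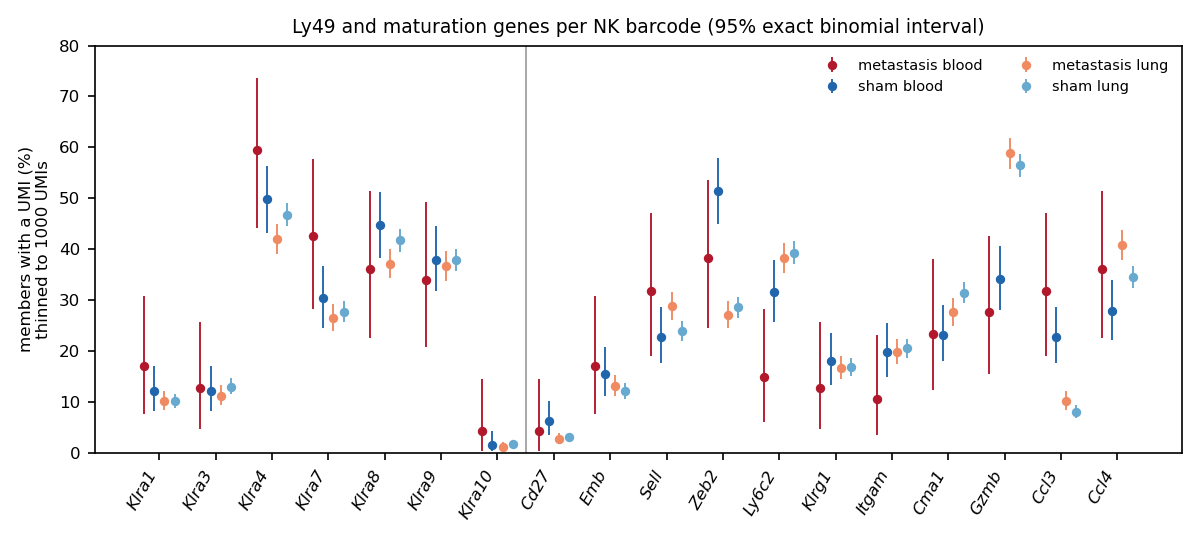
Percentage of NK barcodes with a UMI of each gene after thinning every barcode to 1000 UMIs, in the 4 libraries, with 95% exact binomial intervals; Ly49 (Klra) genes are left of the line and maturation, granule and chemokine genes right of it. Intervals of metastasis blood are wide, at 47 members, and overlap those of sham blood for most genes.

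Members with a Cd27 UMI, 6 in metastasis and 47 in sham blood, were set beside the other members for genes of maturation. In sham blood the median depth was 5600 UMIs with and 3939 without Cd27, so the second gene was read after thinning to 1000 UMIs. Emb, which encodes embigin, was then detected in 41.3% of members with Cd27 (27.0 to 56.8) and 9.4% of those without (5.7 to 14.5). Zeb2 was found in 23.9% (12.6 to 38.8) and 58.1% (50.8 to 65.2), Gzmb in 17.4% (7.8 to 31.4) and 38.2% (31.3 to 45.5), and Cma1, the mast cell chymase gene that mature NK cells express, in 8.7% (2.4 to 20.8) and 26.7% (20.6 to 33.6). After thinning, members with Cd27 thus held Emb more often and Zeb2, Gzmb and Cma1 less often, with intervals that did not overlap for Emb and Zeb2. The intervals did overlap for Klrg1, at 13.04% (4.9 to 26.3) and 19.4% (14.0 to 25.7), for Itgam, at 15.2% and 20.9%, and for Cx3cr1, at 2.2% and 5.2%. Sham lung NK cells gave the same order, with Emb in 30.5% and 10.4%, Zeb2 in 14.6% and 30.0%, Gzmb in 40.2% and 58.0% and Cma1 in 20.1% and 32.6%. Without thinning, Zeb2 was found in 87.2% (74.3 to 95.2) and 85.0% (79.1 to 89.7) of sham blood members with and without Cd27. Its order in sham blood was thus seen only after thinning, while Emb, Gzmb and Cma1 kept theirs. Cells of a library are not replicates, and these shares describe the libraries. The shares of all members with Zeb2 were 38.3% in metastasis blood (24.5 to 53.6) and 51.5% in sham blood (44.9 to 58.0) after thinning, and those of Ly6c2, a Ly6C gene of mature NK cells and monocytes, 14.9% (6.2 to 28.3) and 31.6% (25.8 to 38.0).

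Per member, the granule genes varied widely within each library. Gzma ranged from 18.2 to 247 UMIs per 10000 with a median of 117 in metastasis blood, and from 0 to 276 with a median of 104 in sham blood, where 3 members held none. Ccl5 had medians of 168 and 167 per 10000 and ranges of 22.7 to 392 and 4.9 to 537. Gzmb had medians of 5.0 and 3.1 per 10000, with 11 of 47 and 80 of 240 members at 0.

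The same rule found 1097 NK barcodes in metastasis lung and 1904 in sham lung, against which the blood members were set. A gene was counted when blood differed from lung by 2-fold or more in the same direction in both arms with intervals that excluded equality. Of 6135 measured genes 15 were higher in blood (0.244%) and 112 lower (1.83%). With haemoglobin kept in the scale these counts were 40 and 62, since haemoglobin made up 24.6% and 20.2% of the lung members' UMIs and 9.79% and 10.3% of those of blood. The tissues were prepared in different ways, so tissue and preparation cannot be told apart. Of the 112 genes lower in blood NK cells, 65 were also 2-fold or more lower in blood T barcodes in both arms and 55 in B barcodes. Of the 15 higher ones, 6 were higher in T and 4 in B barcodes. The T and B shares over all measured genes are not given here, so these counts are not read as a large or small overlap.

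The 8 lowest genes by the smaller ratio of the arms, within the limit against free RNA, were Cnnm2, Vegfa, Abcb1b, Nr4a3, Crem, Fosl2, Igsf5 and Nr4a1. The nuclear receptors Nr4a1 and Nr4a3, which follow antigen or activating receptor signals, stood at 41.4 CPM against 243 CPM in lung (metastasis arm) and 21.9 against 192 CPM (sham arm), and at 6.90 against 120 CPM and 17.1 against 142 CPM. Their log2 ratios in the sham arm were -3.13 (-3.80 to -2.54) and -3.05 (-3.82 to -2.38), and T barcodes were at -1.33 and -2.61. Crem and Fosl2, factors of cyclic AMP and AP-1 responses, were at -2.91 and -2.72 in the sham arm. Vegfa, the vascular growth factor, had 1 UMI in metastasis blood and stood at 8.57 against 100.3 CPM in the sham arm (-3.55, -4.69 to -2.61), and the drug efflux pump Abcb1b at 21.9 against 305 CPM (-3.80, -4.46 to -3.21). Cnnm2, a magnesium transporter, was at 23.8 against 348 CPM (-3.87, -4.50 to -3.30) in NK cells, and at -1.35 in T and -2.06 in B barcodes. Among lists, 6 of 26 immediate early genes were lower in blood (Btg2, Nr4a1, Nr4a2, Nr4a3, Rgs2 and Gadd45b), and none higher.

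**Figure D5:**
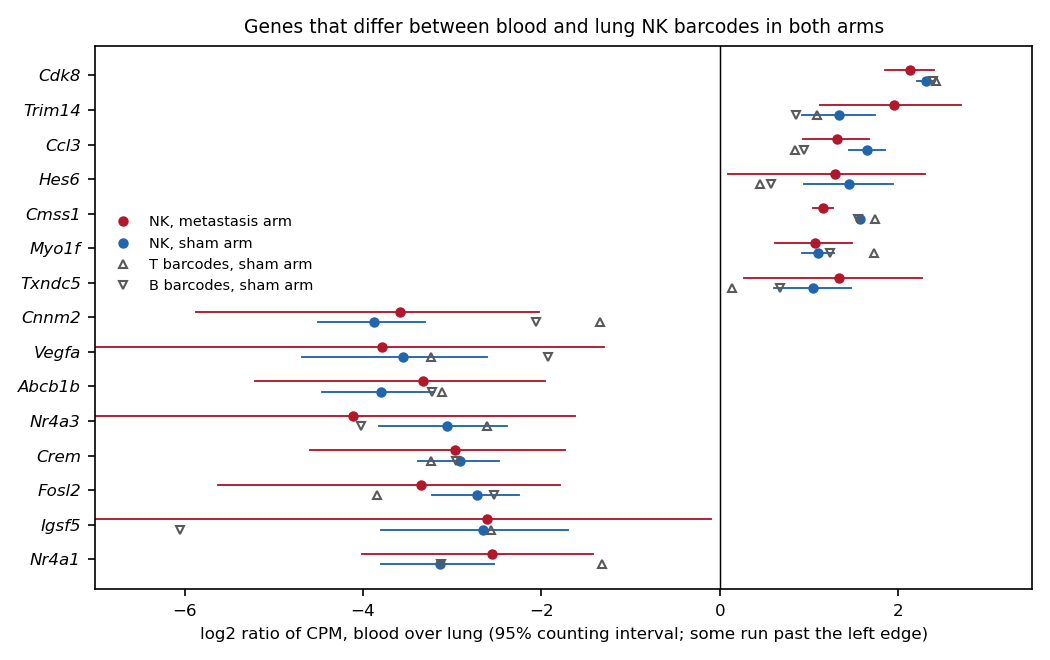
Log2 ratio of CPM, blood over lung, in NK barcodes of the metastasis and sham arms (circles, 95% counting intervals) for 15 of the 16 genes named, the 8 highest and 8 lowest by the smaller ratio of the arms within the limit against free RNA; triangles give T and B barcodes of the sham arm. The T and B values lie on the same side of 0 as the NK values for all genes drawn in the sham arm.

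Some killing and homing genes were also counted lower in blood. Gzmb was lower in blood, at 628 against 1408 CPM in the metastasis arm (-1.16, -1.48 to -0.86) and 499 against 1251 CPM in the sham arm (-1.33, -1.46 to -1.20), and the serpins Serpinb9 and Serpinb9b were lower in both arms, at -1.03 and -1.52 and at -1.10 and -1.66. With them, 3 of 15 cytotoxic granule genes were lower in blood and none higher. In the sham arm Gzmb was also at -3.22 in T and -3.92 in B barcodes, and at -4.23 and -4.73 in the metastasis arm. Serpinb9 was at -2.41 in T and -3.17 in B barcodes of the sham arm, and at -2.64 and -4.22 in the metastasis arm. Serpinb9b was at -2.74 and -2.57, and at -0.48 and -2.68. Lower levels of these genes in blood were thus not particular to NK cells. Cxcr4, the receptor that holds NK cells in bone marrow, was at 55.2 against 145 CPM (-1.39, -2.61 to -0.40) and 46.7 against 125 CPM (-1.42, -1.87 to -0.99), and at -1.58 in T and -1.18 in B barcodes of the sham arm. Of 11 measured genes of TGF-beta signalling 4 were lower (Tgfb1, Smad3, Skil and Tgif1). The genes higher in blood rested on fewer UMIs. For each, the gene's UMIs in the blood member that held the most were left out, with the scale and the lung UMIs kept. Of the 8 highest, Cdk8, Trim14 and Cmss1 stayed past 2-fold in both arms, and the other 5 did not. Ccl3 was at 483 against 195 CPM (1.31, 0.93 to 1.68) and 343 against 109 CPM (1.65, 1.45 to 1.85). It was at 0.86 (0.41 to 1.28) in the metastasis arm without the Ccl3 UMIs of 1 member, while Ccl4 stood below its lung level, at -0.62 and -0.64. The Mediator kinase Cdk8 was at 960 against 219 CPM (2.13) and 1613 against 326 CPM (2.31), with ratios of 2.42 in T and 2.39 in B barcodes of the sham arm. The repressor Hes6 (1.29 and 1.45) and the disulphide isomerase Txndc5 (1.34 and 1.04) were at 0.92 (-0.45 to 2.05) and 1.048 (-0.14 to 2.05) in the metastasis arm without the gene's UMIs of 1 member. Zeb2 was at 1.04 (0.93 to 1.16) in the sham arm and at 0.29 (-0.06 to 0.62) in the metastasis arm, so it was not counted. Of the identity genes outside the rule, Ccl5 was at -0.05 in each arm. Ncr1 (-0.11 and -0.07) and Klrb1c (0.11 and -0.02) chose the members of both tissues, and their values are a description.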

How the data were processed

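Single-cell RNA was measured in 4 droplet libraries, 1 for each tissue and arm. The authors deposited whole-number UMI counts for 32285 genes in each barcode, with no normalisation, and lists of barcode and gene names. Cell Ranger 7.0.0, GRCm38.p6, Seurat 4.3.0.1 and R 4.3.1 are named in the submitters' processing notes, with no role stated for any of them. Deposited barcodes hold at least 500 UMIs. Members were found by the rule given in the report, applied with Python 3.11.15 and scipy 1.17.1. T barcodes held at least 2 UMIs of Cd3e, Cd3d and Cd3g and no UMI of Cd79a or Ms4a1, and B barcodes the reverse. Doublet scores came from Scrublet in scanpy 1.11.5 (expected rate 10%). UMIs were summed over the members of a library and scaled to 1000000 without haemoglobin genes. Shares carry exact Clopper-Pearson intervals and ratios of counts an exact interval from the binomial split of their sum, at 95%; a count of 0 was set to 3 counts, which gives a bound. Both cover counting error only. The ratio interval was tested on counts simulated with counting error alone, which it assumes. That test could not show how the interval holds where the UMIs of a gene lie in few members. No p-value was computed, since each group is 1 library.

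Named genes were the 12 highest and 12 lowest ratios at 2-fold with a CPM of at least 0.25 of the highest of T, B, neutrophil, monocyte, platelet or red cell barcodes of that library, without ribosomal, mitochondrial, haemoglobin and receptor segment genes and gene models. To these came fixed NK genes, the 4 members with the largest ratio of each of 32 lists (544 of 547 list genes were in the matrix), and 8 genes in each direction between tissues; 1 gene that the rule names is not reported here. Dusp2, Il12rb2, Irak2 and Slfn2, counted in their lists, and other list genes with values were named after their values were seen. The members and lists were chosen with earlier results of these data known. Gene positions are RefSeq's for GRCm38.p6.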

Additional observations from a re-analysis of the deposited data

Results flagged for a closer look

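Metastasis over sham log2 ratios of 10 named genes had the opposite sign in blood NK and lung NK cells, with intervals that excluded equality in each tissue. The share of all measured genes with such opposite signs is not given, and many genes were named for a large blood ratio. The count of 10 is thus not read as many or few. Lung values are for all lung members, mixed barcodes included. The difference between the tissues was not tested, since each value comes from 1 library per group. Mosmo was at 1.58 in blood and -0.20 in lung NK cells, and Pear1 at 1.22 and -0.37. The chemokine Xcl1 was at -1.12 in blood and 0.42 in lung, where it stood at 173 and 129 CPM. The immediate early genes Jun and Fos were at -1.96 and -1.45 in blood and at 0.38 and 0.33 in lung, and the chaperone Hsph1 at -2.21 and 0.53. Without mixed barcodes the blood ratios of Jun and Fos were nearer to equality, as given above. Il1b (-3.48 and 3.58), Ifitm3 (-3.62 and 1.79), Alox5ap (-1.69 as a bound, and 3.04) and Il1r2 (-1.46 as a bound, and 6.09) are genes of neutrophils and monocytes. Neutrophil marker levels ran the same way: the 7 markers summed to 62.1 CPM in metastasis and 878 CPM in sham blood members, and to 1056 CPM in metastasis and 7.51 CPM in sham lung members. Without mixed barcodes no blood ratio could be given for these 4 genes.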

How the results depend on the processing

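The shares of NK cells kept their side of equality under every alternative run, but on the lymphocyte bases every interval included equality. Without mixed barcodes the ratio among NK, T and B barcodes was 0.996 (0.696 to 1.40). That setting left mixed barcodes out of the NK members only. For the gene counts, 35 higher and 130 lower genes (21.2% of those counted were higher) became 4 and 53 (7.02%) with a minimum of 100 UMIs and 101 higher with a minimum of 20 UMIs (41.6%). The lower count was 80 without members holding Pf4 or Ppbp, 77 without mixed barcodes and 70 (42.1%) with a mean of 50 CPM, the latter 2 settings chosen after the data were seen. Blood against lung gave 40 higher and 62 lower genes with haemoglobin in the scale, so that 39.2% were higher in place of 11.8%. The share of members with a Klra UMI moved with depth, to 91.5% and 89.2% unthinned and to 81.4% in sham blood at 2000 UMIs. The median of the lipid mediator list, of 2 measured genes, was -0.74 and turned to 0.29 without doublets, 0.22 without members holding Pf4 or Ppbp and 0.21 with a mean of 50 CPM; Klra1 turned to -0.11 when thinned. The cause was not tested. Of the single genes and list medians under an alternative, 2683 values were classed as moved by no more than the counting interval, 31 as moved further and 4 as reversed. These 4 are not all the changes of sign. Over the alternatives Klra3 ran from -0.50 to 0.38, Nfkbia from -0.62 to 0.59 and the median of the NF-kB list from -0.25 to 0.38. For some genes no value could be given, among them Il1b and Il1r2 without mixed barcodes. No paired analysis was possible because each group is 1 library with no replicate number, and for the same reason no replicate could be left out.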

Other observations

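Checkpoint receptors beyond those measured were rare in the members. Pdcd1 (PD-1) and Havcr2 (TIM-3) had no UMI in either blood library, Lag3 had 0 in metastasis and 4 in sham blood, and Ctla4 2 and 5. Tigit, an inhibitory receptor for CD155, had too few UMIs to be measured and is singled out after its values were seen. It had 9 UMIs in 8 of 47 metastasis members (17.0%, 7.65 to 30.8) and 13 UMIs in 13 of 240 sham members (5.42%, 2.92 to 9.09), while lung NK cells held it in 4.56% and 3.68% and B barcodes of blood in 0.12% and 0.13%. After thinning to 1000 UMIs the blood shares were 6.38% (1.34 to 17.5) and 0.844% (0.102 to 3.01), with overlapping intervals. At 2000 UMIs they were 4 of 40 (2.79% to 23.7%) and 1 of 231 (0.011% to 2.39%), with intervals that did not overlap.

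Cytokine genes other than those above were also near absent: Tnf had 0 and 2 UMIs and Csf2 1 and 1. The granzymes Gzmk (2 and 8 UMIs) and Gzmc (1 and 0) were hardly detected. Thy1, carried by a subset of NK cells, was found in 17.0% of metastasis and 16.7% of sham blood members, and in 6.56% and 6.04% of lung NK cells. At 1000 UMIs the Thy1 shares were 4.26% and 5.49% in blood and 2.50% and 2.13% in lung.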
